A study of Mus musculus with 2 samples.

Results

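The 10 genes described here encode transcription factors grouped as amacrine and horizontal cell fate factors: Barhl2, Bhlhe22, Ptf1a, Prdm13, Onecut1, Onecut2, Prox1, Tfap2a, Tfap2b and Tfap2d. Barhl2 and Bhlhe22 also act in other retinal cells, and Tfap2d is better known from ganglion cells. The 10 genes were taken by name. A gene counted as having a POU3F1 peak where it had a row in the deposited table that pairs 2323 genes with peaks. Of the 10 genes, 6 had a row, with 17 of the 2652 peaks between them, where 10.2% of all 21883 protein-coding genes of the RefSeq gene table had one. The samples were retinas of wild-type (WT) CD1 mice at embryonic day 14, described by the labels only as retinal cells, with no cell type named. CUT&RUN, in which an antibody directs a nuclease to the DNA around its target, was done with an antibody to POU3F1 (1 library) and with rabbit IgG (1 library). Each antibody had a single library and the peaks come from the POU3F1 library alone, so no difference could be tested and all values describe that library.

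Amacrine cells are the inhibitory interneurons of the inner retina, and horizontal cells those of the outer retina at the photoreceptor synapse. Both arise from a shared precursor in which the factor PTF1A is needed for their fate, with PRDM13 acting after it in amacrine subtypes. ONECUT factors and PROX1 are required for horizontal cells, the AP-2 factors TFAP2A and TFAP2B for the differentiation of both classes, and BARHL2 and BHLHE22 for amacrine subtypes. POU3F1 is a POU-domain factor, and the series concerns its network in the retinal ganglion cells whose axons cross to the contralateral side of the brain.

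Most of the peaks were at Barhl2 and Bhlhe22. Barhl2 had 6 peaks and Bhlhe22 had 5, which together made 11 of the 17. Prox1 and Tfap2d had 2 peaks each, Onecut1 and Tfap2a had 1 each, and Ptf1a, Prdm13, Onecut2 and Tfap2b had none. Over all protein-coding genes, 3.86% had 2 or more peaks and 0.699% had 5 or more. The fold given for each peak is the authors' enrichment at its summit over the local background, and the summit pileup, recovered from that fold and its p-value, is the number of fragments stacked there.

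**Figure D1:**
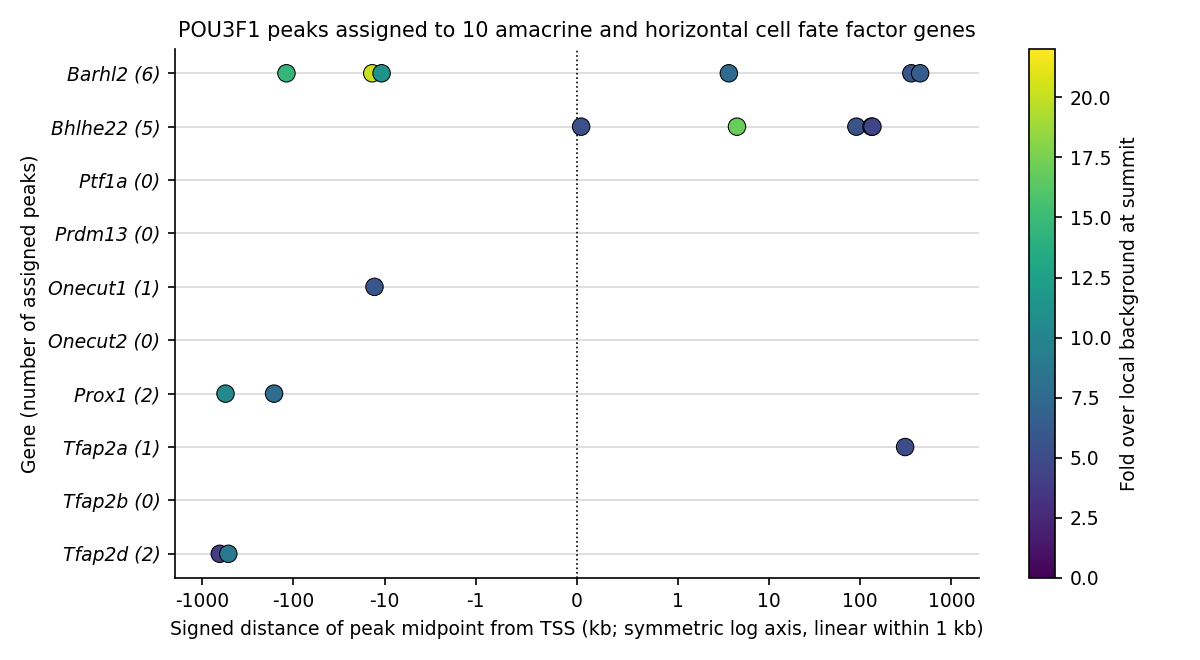
Each point is a POU3F1 peak, placed by its signed distance in kb from where the gene's transcription starts (TSS; horizontal axis, symmetric log scale, upstream negative) and coloured by fold at the summit. Barhl2 has peaks on both sides of its TSS, the 5 peaks of Bhlhe22 all have positive distances, and 4 genes have no peak.

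Barhl2, a homeodomain factor gene of amacrine and ganglion cell subtypes, lies on chromosome 5 (chr5:106452523-106458166, mm10) in an interval of 700.9 kb between the neighbouring protein-coding genes Zfp326 and Zfp644. Its strongest peak, chr5:106471146-106472492, lay 13653 bp upstream of the TSS with 20.2-fold enrichment and a summit pileup of 76 fragments. Of all 2652 peaks, 4.22% had a fold as high or higher. At 1347 bp it was also the longest of the 17 peaks. A second peak, chr5:106468454-106469454, was separated from it by 1691 bp, lay 10788 bp upstream and had 11.2-fold enrichment with a pileup of 43. Neither overlapped an annotated gene.

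The other Barhl2 peaks were spread over both sides of the gene. A peak at chr5:106577409-106577860, 119468 bp upstream, had 14.6-fold enrichment and a pileup of 51, and overlapped the RNA gene Gm8350. It was almost midway to Zfp644, whose TSS was 119196 bp from it. One peak, chr5:106454315-106454805, was inside the Barhl2 gene body, 3606 bp downstream of the TSS, with 7.59-fold enrichment and a pileup of 30. Whether it overlaps an exon or an intron was not analysed here. The 2 remaining peaks were far downstream, at 363402 bp (chr5:106094556-106094973, 5.89-fold, pileup 17) and at 453770 bp (chr5:106004042-106004751, 6.37-fold, pileup 13). Folds and pileups of these 2 were lower than those of the 4 peaks within 120 kb of the TSS, which held pileups from 30 to 76.

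The Barhl2 interval held 8.56 peaks per Mb, while the autosomes as a whole held 1.04 per Mb. The shorter interval of Bhlhe22 held 16.3 per Mb, from 2 peaks. The intervals of Onecut1, Tfap2a, Tfap2d and Prox1 held 1.49 to 2.35 per Mb, and those of the genes without a peak held none. Protein-coding genes were placed in 10 equal groups by the length of the interval between their neighbours, and in the group of the longest intervals (459.5 kb or more) 3.79% had 6 or more assigned peaks. All 6 peaks were also assigned to a neighbour, 3 to Zfp326 and 3 to Zfp644, and in 3 of the 6 the TSS of Barhl2 was the nearer one.

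The peak 363402 bp downstream of Barhl2 is the only one of the 17 for which a RefSeq promoter window (250 bases before to 50 after a start site) gave sequence, because the long non-coding RNA gene Gm32736 starts inside it. The overlap, 281 of the 418 bp of the peak, is chr5:106094693-106094973 on the plus strand (GRCm38.p6, the assembly of mm10) and begins 36 bp past the summit. It is shown to give the letters under a peak of this locus, with matches to the searched motifs in capitals.

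Gm32736 window under the Barhl2 peak: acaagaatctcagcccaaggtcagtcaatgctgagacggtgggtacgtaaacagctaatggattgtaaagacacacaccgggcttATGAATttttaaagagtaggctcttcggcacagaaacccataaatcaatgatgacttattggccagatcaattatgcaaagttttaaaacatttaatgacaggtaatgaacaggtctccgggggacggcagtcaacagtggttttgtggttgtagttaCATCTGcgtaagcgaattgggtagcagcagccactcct

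Of 6 motifs searched on both strands, 2 were found in this stretch. ATGAAT, a short POU-type core, occurred at bases 86 to 91, and CATCTG, an E-box of the kind read by bHLH factors, at bases 244 to 249. Among the first 281 bases of all 32851 RefSeq promoter windows, 10.6% held ATGAAT and 16.1% held CATCTG, so each is common. The octamer ATGCAAAT (1.69% of windows), ATGCNNAT (8.58%, which the octamer also matches), the homeodomain core TAATTA (5.10%) and the E-box CAGCTG (14.98%) were not in it. A match is a description of the letters and does not show a site, and the summit of the peak lies outside the stretch.

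Bhlhe22, which encodes a bHLH factor of GABAergic amacrine and cone bipolar cells, lies on chromosome 3 (chr3:18054325-18057514) and was the only one of the 10 genes with a peak over its start. That peak, chr3:18054059-18054373, had 5.39-fold enrichment and a summit pileup of 21. The table gives its midpoint as 42 bp downstream of the TSS, which the distances of the gene place at 18054174. The gene starts 151 bp further on in RefSeq, so that the same midpoint lies 110 bp upstream of the RefSeq start and the last 49 bases of the peak lie in the gene body. It was also the only one of the 17 peaks paired with a single gene among the pairs that could be placed.

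A stronger peak followed just past the other end of the gene. At chr3:18058237-18058972 it had 16.9-fold enrichment and the highest summit pileup of the 17 peaks, 94 fragments. It began 723 bp beyond the annotated end of Bhlhe22, 4430 bp downstream of the TSS, and 12972 bp before the body of the adjoining gene Cyp7b1, which encodes an oxysterol hydroxylase. Of all peaks, 6.64% had a fold as high or higher.

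The other 3 Bhlhe22 peaks lay inside the body of Cyp7b1. They were 90623 bp (5.63-fold, pileup 22), 132440 bp (5.90-fold, pileup 14) and 135928 bp (4.41-fold, pileup 17) downstream of the Bhlhe22 TSS, and the last 2 were 3060 bp apart. All 3 folds were below the median of all peaks, 6.37. Cyp7b1 shared 4 of the 5 peaks, more than any other gene shared with one of the 10 genes, and its own TSS was the nearer one for the last 2. The interval between the neighbours of Bhlhe22 is 123.0 kb long and held 2 of its 5 peaks, since it ends where the body of Cyp7b1 begins. Assignment reached further, into Cyp7b1, so this length understates the span over which Bhlhe22 could collect peaks. Among protein-coding genes with an interval of that length (94.3 to 136.4 kb), 7.59% had an assigned peak. Of these genes, 0.183% had 5 or more, wherever the peaks lay.

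**Figure D2:**
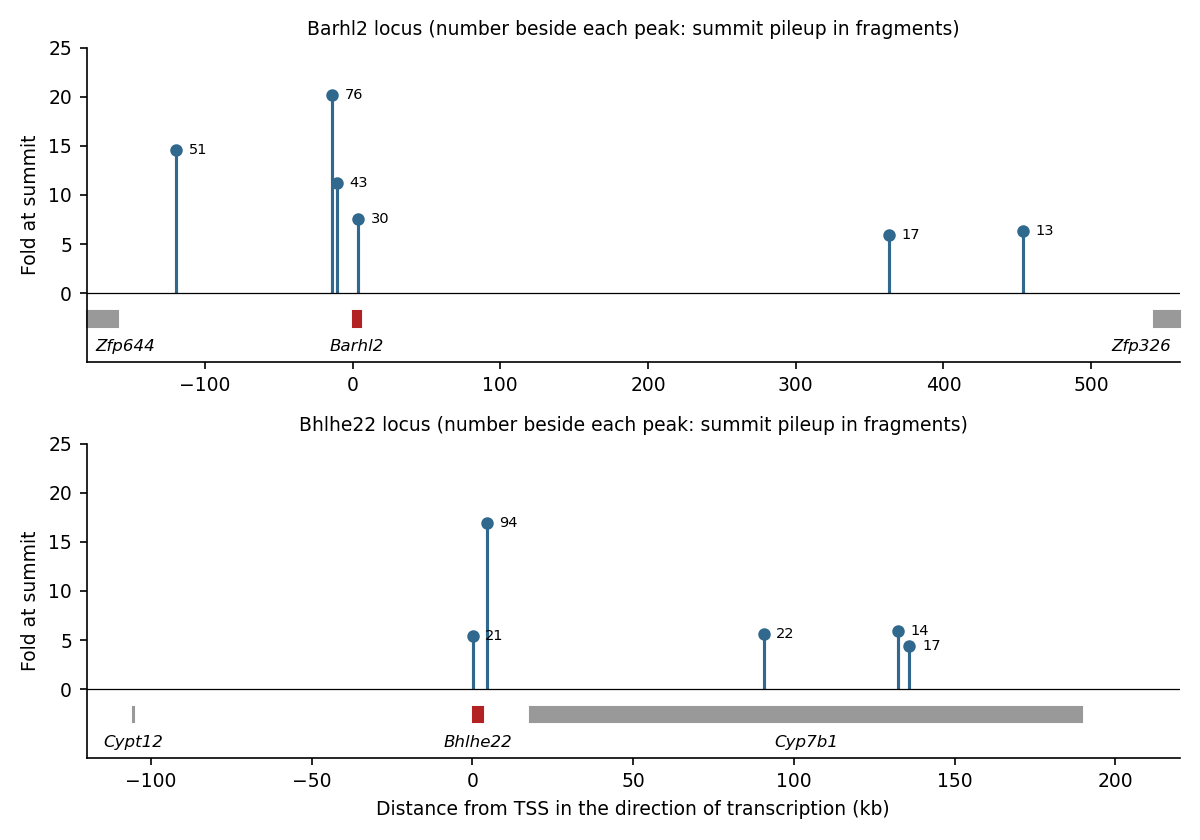
Fold at the summit (vertical axis) of each peak assigned to Barhl2 (top) and Bhlhe22 (bottom) against distance from the TSS in kb in the direction of transcription, with the gene in red, neighbouring protein-coding genes in grey and the summit pileup in fragments beside each peak. The 20.2-fold and 11.2-fold peaks stand together upstream of Barhl2, and the 16.9-fold peak stands just past Bhlhe22.

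Ptf1a and Prdm13 had no peak. Ptf1a, the bHLH gene needed for amacrine and horizontal fate, had its nearest peak on the chromosome 637.2 kb from the gene body (4.98-fold, pileup 10), assigned to Etl4 and Otud1. Its interval between neighbours is short, 67.9 kb, a length at which 3.20% of genes had a peak. Prdm13, a zinc-finger gene of amacrine subtypes, lies in a long interval of 947.0 kb that held no peak, and the nearest was 615.3 kb away (8.66-fold, pileup 21, assigned to Faxc and Fbxl4). With the summit pileup of single peaks as low as 7 in this list, an absent peak means that none was called at this depth.

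Among the horizontal cell genes, Onecut1 had 1 weak peak close to the gene. Onecut1 encodes a cut-homeodomain factor. Its peak, chr9:74848907-74849122, lay 12907 bp upstream of the TSS, inside the long non-coding RNA genes Gm33562 and Gm16551. It had 5.89-fold enrichment, a pileup of 11 fragments and the shortest length of the 17 peaks, 216 bp. Its paralog Onecut2 had none, with the nearest peaks 371.1 kb (5.90-fold, pileup 14) and 380.8 kb (4.91-fold, pileup 9) from the gene body on either side, both assigned to other genes.

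Prox1, a homeodomain factor gene of horizontal cells, had 2 distant upstream peaks. The nearer, chr1:190333873-190334359, lay 163402 bp upstream with 7.68-fold enrichment and a pileup of 54, the third highest of the 17. The farther, chr1:190728307-190728587, lay 557733 bp upstream with the higher fold, 10.3, on a pileup of 20. Fold and pileup thus ranked these peaks in opposite order. The recovered local background was 6.17 fragments at the first and 1.04 at the second, and the fold adds a constant to both pileup and background. The same background of 1.04 was recovered at the Onecut1 peak and the nearer Tfap2d peak. Both Prox1 peaks were also assigned to Rps6kc1, which was nearer to the second, at 183323 bp. No peak lay within 50 kb of the Prox1 TSS.

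The AP-2 genes had only distant peaks. Tfap2a, an AP-2 gene of amacrine and horizontal cells, had 1 at chr13:40423121-40423364, 310581 bp downstream of its TSS (5.12-fold, pileup 12), which was closer to Ofcc1, at 135231 bp. Tfap2d, an AP-2 gene better known from ganglion cells, had 2 upstream, at 519292 bp (chr1:18583485-18583976, 8.84-fold, pileup 17) and 644705 bp (chr1:18458204-18458430, 3.93-fold, pileup 9). The latter had the lowest fold, the lowest pileup and the lowest −log10 q-value of the 17, 1.87, and both were closer to Defb41. Tfap2b, which acts with Tfap2a, starts 34960 bp past the end of Tfap2d and had no peak of its own, while the 2 Tfap2d peaks lay 624.9 and 750.5 kb from its gene body. The assignment ends a gene's domain at its neighbour, so these peaks could not be assigned to Tfap2b. On the far side of Tfap2b, 818.9 kb up to Pkhd1 held no peak.

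As a set, the 17 peaks were close in strength to the whole list. Their median fold was 6.37 (quartiles 5.63 and 10.3), against 6.37 (4.91 and 8.84) over the other 2635 peaks. The median summit pileup was 20 fragments (quartiles 14 and 43, range 9 to 94), against 19 (13 and 32) over the others, and the median length was 436 bp against 352 bp. A fold of 10 or more was reached by 5 of the 17 peaks (29.4%) and by 18.7% of the others. These 5 were 3 peaks of Barhl2 and 1 each of Bhlhe22 and Prox1, and 2.80% of protein-coding genes had a peak of that fold. With 17 peaks from 6 loci in 1 library, none of these differences was tested.

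**Figure D3:**
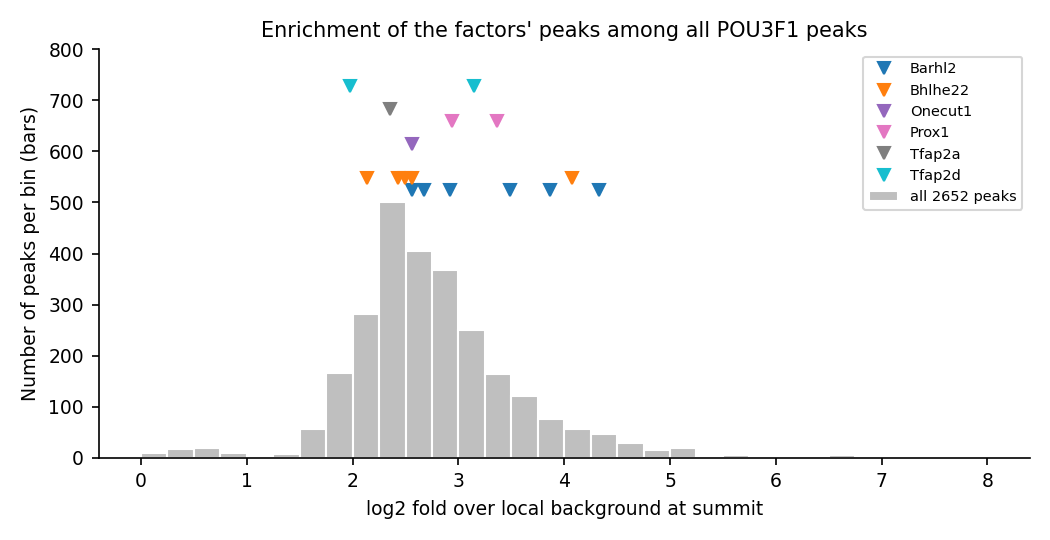
Grey bars count all 2652 peaks by log2 fold at the summit (bins of 0.25), and each triangle is a peak of the gene named in the key, placed on the same horizontal axis; triangle height only separates genes. The 3 triangles farthest right are 2 of Barhl2 and 1 of Bhlhe22, and the lowest is a Tfap2d peak.

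The median distance from the TSS was 132.4 kb over the 17 pairs of gene and peak and 160.8 kb over all 4427 pairs. Within 5 kb lay 3 of the 17 (17.6%, against 8.92% of all pairs), namely the Barhl2 peak in the gene body and the peaks at either end of Bhlhe22, and 5 to 50 kb away lay 3 more (17.6% against 14.9%), upstream of Barhl2 and Onecut1. At 50 to 500 kb there were 8 (47.1%, against 60.7% of all pairs) and over 500 kb there were 3 (17.6% against 15.6%). A peak within 50 kb was present at 3 of the 10 genes and at 3.67% of protein-coding genes, and one within 5 kb at 2 of the 10 and at 1.40%. Of the 17, 8 were upstream (47.1%, against 42.7% of all pairs). Another gene shared 16 of them, and 8 (47.1%, against 56.7% of all pairs) had the TSS of the fate factor as their nearest.

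The share of genes with a peak also differed by the length of the interval around the gene. The share of protein-coding genes with a peak was 4.16% in the group of the shortest intervals, 3.20% in the group of Ptf1a and 40.7% in that of the longest. The group of the longest held 7 of the 10 genes, and 5 of these 7 had a peak (Barhl2, Onecut1, Prox1, Tfap2a and Tfap2d, but not Prdm13 or Tfap2b). Within that group, 7.72% of genes had a peak within 50 kb, as Barhl2 and Onecut1 did. The interval of Onecut2, which had no peak, was 180.4 kb long, in a group where 11.4% of genes had one. In the group of the longest, 22.2% of genes had 2 or more peaks, as Barhl2, Prox1 and Tfap2d did, and 12.3% had one of 10-fold or more, as Barhl2 and Prox1 did. The part of interval length in the count of 6 of 10 was not tested.

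**Figure D4:**
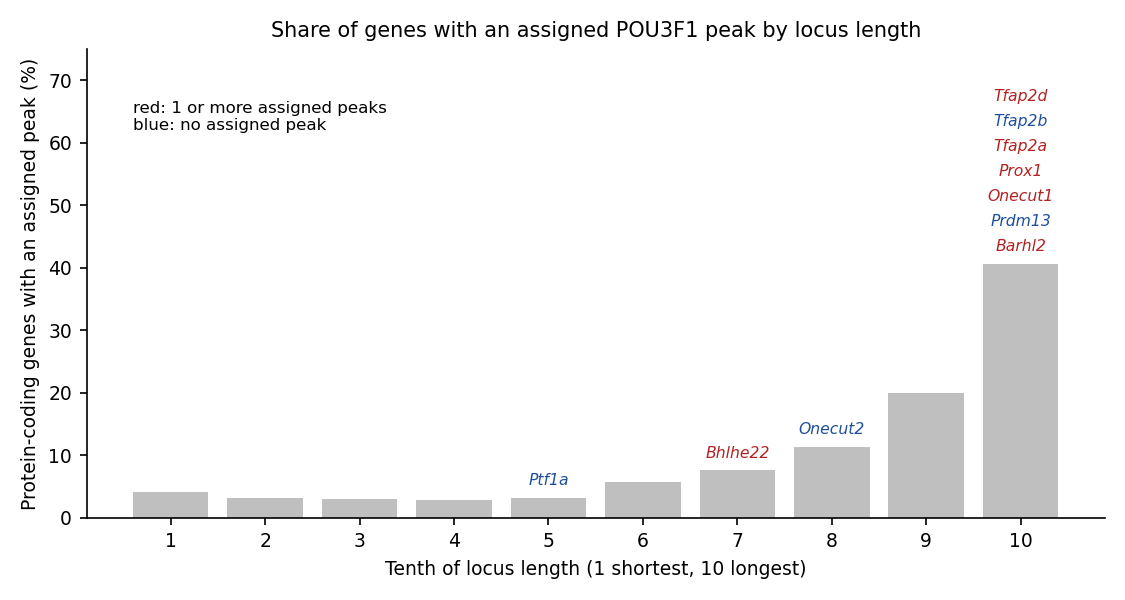
Bars give the percentage of protein-coding genes with an assigned POU3F1 peak in each of 10 groups of locus length, the distance between the neighbouring protein-coding genes. The 10 genes are written above the bar of their group, in red with a peak and in blue without: 7 of them sit above the group of the longest loci, whose bar reaches 40.7%.

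Other transcription factors of amacrine and horizontal cell birth or subtype were also counted. Of 36 listed, 28 had a peak, against 10.2% of all protein-coding genes, in 108 peaks, with a median over genes of the strongest fold of 11.2. This list was written from general knowledge with earlier results of these data known, and its members also act in progenitors and other retinal cells, so its count is a description. Of its 36 genes, 17 were in the group of the longest intervals, and 16 of these had a peak, against 40.7% of all genes of that group. The difference from the 10 genes was not tested. The strongest were Dlx1 and Dlx2, homeodomain factor genes that share a peak of 103.6-fold, then Lmo4, a LIM-only factor gene (37.0-fold, 414884 bp downstream), and Gbx2, a homeodomain factor gene of amacrine subtypes (35.5-fold, 180223 bp downstream). A peak within 5 kb of the TSS was present at 8 of the 36, against 1.40% of protein-coding genes. Among the genes without a peak were Foxn4, which acts before Ptf1a in the shared precursor, and Neurod1, Neurod2, Neurod6, Lhx1 and Nfix.

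Of 15 genes listed as relatives of the 10 factors, Bhlhb9 by name only, 3 (20%, against 10.2% of all protein-coding genes) had 1 peak each. In the group of the longest intervals were 2 of the 15, and 0 of these had a peak, against 40.7% of all genes of that group. With so few genes, these differences were not tested. The 3 were Prdm8 (7.37-fold, 1596 bp downstream), which is in the list above too, Olig2 (6.39-fold, 16104 bp upstream) and the AP-2 gene Tfap2c (4.42-fold, 383036 bp downstream, pileup 8). No peak was assigned to Barhl1, Bhlhe23, Onecut3, Prox2 or Tfap2e, the paralogs of Barhl2, Bhlhe22, Onecut1, Prox1 and the AP-2 genes, nor to Olig1, Olig3, Prdm12, Prdm14, Prdm16, Ferd3l or Bhlhb9, of which the last shares only the name with bHLH genes.

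Of 33 listed effector and marker genes of mature amacrine and horizontal cells, 8 (24.2%, against 10.2% of all protein-coding genes) had a peak. Not all of the 33 are particular to these cells. In the group of the longest intervals were 6 of the 33, and 1 of these 6 had a peak, against 40.7% of all genes of that group. These differences were not tested. None had one within 5 kb of the TSS, where 1.40% of all genes had one. Gad2, which makes the transmitter GABA, had 3 peaks, the strongest 328503 bp upstream (13.1-fold, pileup 120). Gja10, a gap junction gene of horizontal cells, had 1 (10.5-fold, 71401 bp downstream), as did the neurofilament gene Nefl (7.59-fold, 128174 bp upstream) and the calcium-binding protein gene Calb1 (7.005-fold, 495816 bp upstream). Gad1, the GABA and glycine vesicle transporter gene Slc32a1 and the acetylcholine synthesis gene Chat were among the 25 without one.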

How the data were processed

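The authors' deposited peak list is in the MACS2 narrow-peak layout and gives each interval a fold (a ratio over the local background), a −log10 p-value, a −log10 q-value and a score. The submitters' processing notes name Bowtie2, MACS2, deepTools and mm10. Whether the IgG library was the control in peak calling is not given in the sources used here, and it has no values of its own here. The deposited gene table was made with GREAT 4.0.4, per the file headers, with basal domains of 5 kb upstream and 1 kb downstream of the TSS extended up to 1000 kb to neighbouring domains.

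Distances were placed on peak midpoints by finding the TSS and strand that fit the most distances of a gene within 3 bp. The TSS was searched up to 150 kb beyond the gene. This placed 4312 of 4427 pairs, and all 17 described here without ambiguity. Only rival fits with a TSS near the annotated start counted as ambiguous, and the placements of Onecut1 and Tfap2a rest on 1 distance each. Whole-number summit pileups were recovered from fold and p-value for 2588 peaks (97.6%), within 0.001 in −log10 p, and are known for all 17. The fold was taken as the pileup plus 1, divided by the local background plus 1. Both steps were run on simulated data built by the same formulas. That run checks the code, not whether the deposited values follow those formulas. Library depth is unknown. Gene positions and promoter windows are from RefSeq GRCm38.p6: 8 of the 10 genes matched a window (Bhlhe22 and Onecut2 did not), and none of these windows was under a peak. Strand-aware exons and the sequence of other peaks were not used here, so the motif share over the peaks was not computed. Coordinates count from 1.

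The 10 genes and the 3 further lists were chosen with earlier results of these data known. Named are all 10 genes with every peak, genes that share their peaks, and the 4 members of each list with the strongest peaks; listed genes without a peak are named only, and some are not reported here by name. Loci run between neighbouring protein-coding genes and were ranked in 10 groups of length. Alternatives were q-value, fold and distance limits and the nearest TSS. Python 3.11.15, pandas 2.3.3 and SciPy 1.17.1 were used.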

Additional observations from a re-analysis of the deposited data

How the results depend on the processing

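The counts were recomputed with stricter peaks and other assignments. With a q-value under 0.01 or under 0.001, 6 of the 10 genes had a peak and 16 of the 17 peaks were left. At these limits the 3 lists had 28, 3 and 8 or 28, 2 and 7 genes with a peak. Of all protein-coding genes, 10.02% had a peak with a q-value under 0.01 and 9.62% had one with a q-value under 0.001. With a fold of 10 or more, 3 of the 10 genes had a peak (5 peaks), with 17 of the other factors, 0 of the relatives and 2 of the effector genes. Within 50 kb of the TSS the counts were 3 genes (6 peaks), 15 other factors, 2 relatives and 2 effector genes. Within 5 kb they were 2 genes (3 peaks), 8 other factors, 1 relative and 0 effector genes. Of all protein-coding genes, 2.80% had a peak with a fold of 10 or more, 3.67% had one within 50 kb and 1.40% had one within 5 kb. With each peak given only to its nearest assigned TSS, 4 genes and 8 peaks were left, with 24 other factors, 2 relatives and 3 effector genes. At that setting 6.76% of all protein-coding genes had a peak. The median fold of the 17 peaks was 6.98 with a q-value under 0.01, 9.41 within 50 kb and 7.63 for the nearest TSS against 6.37 for all 17. Each setting admits fewer peaks or pairs, so no count could rise. The peak lost with a q-value under 0.01 was the 3.93-fold Tfap2d peak, the lowest fold of the 17. The cause of the other shifts in the median was not tested. The window around the summit planned for the motif search was not run, because no genome sequence was used here. No paired analysis was possible because each antibody had 1 library. Summit pileups were under 20 fragments in 8 of the 17 peaks, among them all peaks of Onecut1, Tfap2a and Tfap2d.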

Other observations

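A group of 3 peaks far upstream of Bhlhe22, singled out after its values were seen, was not assigned to it. The peaks, chr3:17326080-17327050 (14.7-fold, pileup 33), chr3:17327551-17328084 (7.11-fold, pileup 39) and chr3:17329323-17329908 (5.51-fold, pileup 30), lay 724.4 to 727.3 kb from the RefSeq start of Bhlhe22. They were assigned to Cypt12, 618795 to 621845 bp upstream of its TSS. This small gene lies between them and Bhlhe22 and ends the domain of Bhlhe22 on that side. A 9.84-fold peak (pileup 24) 432.6 kb from the Tfap2a gene body lay inside the body of Ofcc1, which begins 425.8 kb from Tfap2a. Among the pairs that could be placed, it was assigned to Ofcc1 alone.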
